A study of Rattus norvegicus with 32 samples.

Results

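Genes of receptors for catecholamines, acetylcholine, other amines, vasoactive peptides and prostaglandins were examined in rat lung after blood loss. Genes were taken by symbol: adrenergic (Adra, Adrb), muscarinic (Chrm), serotonin (Htr), dopamine (Drd), histamine (Hrh), vasopressin (Avpr), angiotensin (Agtr), endothelin (Ednr), bradykinin (Bdkrb), prostanoid (Ptgdr, Ptger, Ptgir and Ptgfr), somatostatin (Sstr), neuropeptide Y, neuropeptide FF, tachykinin (Tacr), opioid (Opr) and Gpr-numbered receptors. The symbols matched 86 of 5022 genes with 1 symbol, of which 82 are receptors. The other 4 share only the first letters of a receptor symbol: Gprasp1 encodes a protein that sorts receptors to lysosomes, Htra1 a secreted serine protease, Oprpn the precursor of the peptide opiorphin, and Ptgfrn a membrane protein that binds the prostaglandin F2-alpha receptor. No endothelin receptor gene was among the matches. A test was run on 85 of the 86; Htr2b, with a value on 22 of 30 arrays, was left untested.

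Most of these receptors span the membrane 7 times and signal through heterotrimeric G proteins, which raise or lower cyclic AMP or release calcium from internal stores. Htr3a and Htr3b are exceptions, since they encode subunits of a serotonin-gated ion channel. In the lung, beta-adrenergic receptors relax airway muscle, and muscarinic receptors contract it and drive mucus secretion. After blood loss the sympathetic nerves, the adrenal medulla, the renin-angiotensin system and vasopressin from the pituitary act through such receptors to hold arterial pressure.

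Male Sprague-Dawley rats carried arterial catheters and a telemetry device, and after recovery 40% of the estimated blood volume was withdrawn at the start of the experiment. Lungs were taken 1, 3, 16, 24, 48 and 72 h after hemorrhage (3 arrays each, of which 2 were used at 16 h) and 6 h after it (5 arrays). Sham rats were instrumented and not bled (6 arrays, 5 used), and control rats were neither instrumented nor handled (3 arrays). Each 2-colour array set the RNA of 1 lung against a pool of RNA from organs of untreated rats, so a value is the log2 ratio of lung to pool after the array's median was subtracted. The labels give sham rats a monitoring period shorter than 24 h, and when their lungs were taken is not stated clearly. Sham lungs may therefore not match the 24, 48 and 72 h lungs in time since the start. Sham and bled rats may also differ in the hour of day. Rats are not numbered in the labels, so a p-value here reflects only how far these samples spread. In whole lung, fewer cells of a type and less RNA per cell cannot be told apart.

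Of 13056 spots, 12151 to 12895 had a value on each of the arrays used, and the number of arrays limits the precision. The lung epithelium list (8 of 8 genes measured, surfactant genes among them) had a median log2 ratio of 0.90 to 2.82 on the 30 arrays used. Sham replicate 2 and 16 h replicate 3 stood apart: the median of 12 liver genes was 3.40 and 3.23 there, against -1.37 to 0.36 on the 30 other arrays. Both were left out as the definition of this gene set prescribes, and calls on receptor genes that change when they are put back are given both ways. Over 91 sequence accessions of the receptor genes, paired spots differed by a median of 0.124 log2 units. The median correlation of paired spots over the 30 arrays was 0.865. It ran from 0.0924 for Htr2b to 0.995, so single genes differ in how well they were measured. Gene positions given below are those of RefSeq (GRCr8), where 85 of the 86 genes had one.

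In lungs that were not bled most of these genes lay close to the organ pool. Their median log2 ratio over the 8 control and sham arrays was -0.10, against -0.02 for all tested features, and 69 of 86 lay between -1 and 1. That share was 83.9% among all features. A ratio compares lung with the pool for 1 gene, so it says nothing of transcript amounts between genes. The 5 highest were Chrm3, which encodes the M3 muscarinic receptor of smooth muscle and glands, at 1.44 ± 0.32 (SD, n = 8), the dopamine receptor gene Drd2 at 1.17 ± 0.25, the somatostatin receptor gene Sstr4 at 1.13 ± 0.76, the delta opioid receptor gene Oprd1 at 1.09 ± 0.28 and the serotonin receptor gene Htr2a at 0.98 ± 0.29. The 5 lowest were Gpr149 at -3.21 ± 0.74, the histamine receptor gene Hrh2 at -2.05 ± 0.62, Sstr3 at -1.96 ± 1.07, the neuropeptide Y receptor gene Npy2r at -1.63 ± 0.46 and Drd5 at -1.51 ± 0.29. By family, 4 of 5 somatostatin and 5 of 8 adrenergic receptor genes lay above 0, and 0 of 4 histamine and 1 of 5 prostanoid receptor genes did.

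**Figure D1:**
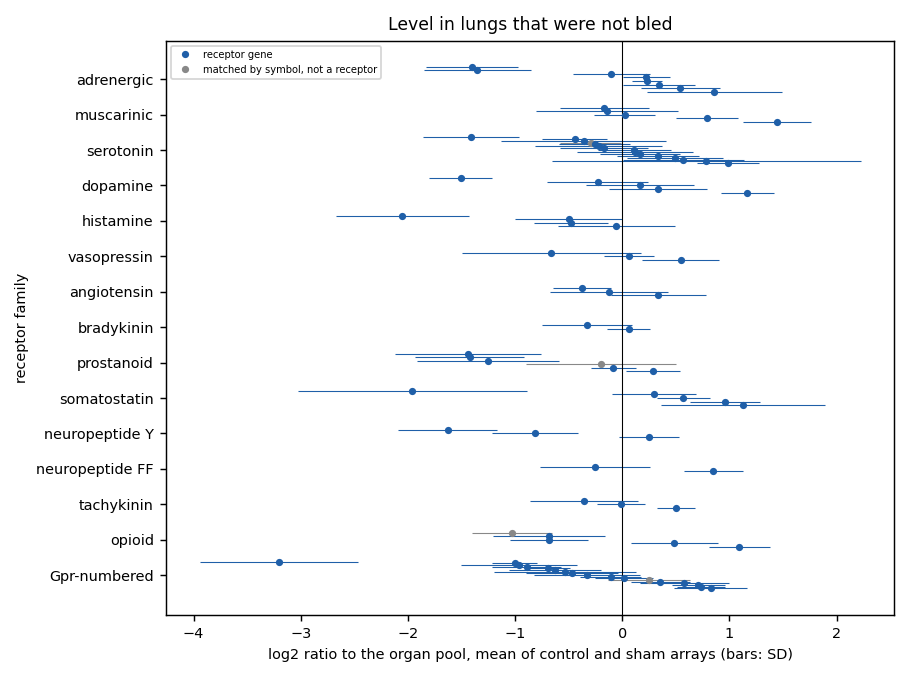
Level of 86 genes in lungs that were not bled. The horizontal axis is the log2 ratio to the organ pool, points are means over control and sham arrays, bars are SDs, and rows are receptor families. Most points lie between -1 and 1, with Chrm3 highest at 1.44 and Gpr149 lowest at -3.21.

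How receptor transcripts changed with time after hemorrhage was the main comparison. Lower calls outnumbered higher ones: over the 7 times limma made 14 calls (adjusted p under 0.05 over 5993 features) in 8 of the receptor genes, 12 lower and 2 higher in bled lungs than in sham lungs. All features leaned the same way, with 554 of their 809 calls over these times lower. With array weights the split among the 85 genes was 26 lower and 18 higher, and with all 32 arrays it was 7 and 1. The vasopressin receptor gene Avpr1b, Chrm3 and the orphan receptor gene Gpr27 fell over the mean of the 7 times, by 1.12, 1.07 and 1.21 on the log2 scale. Sstr5 was called lower at 72 h, and its mean lay below sham from 6 h on, while its 1 and 3 h values lay within or above those of sham. At 72 h Ptgfr, the receptor gene of prostaglandin F2-alpha, and the serotonin receptor gene Htr7 rose. Of the 85 tested genes 16 were called in at least 1 of the 12 comparisons and 69 in none. All comparisons with sham share the same 5 sham arrays, so they are not independent of each other.

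Counts at single times were read against those of all features. At 3 h 3 of 85 were called, all lower, against 2.8% of all features (1.05% higher and 1.75% lower). At 24 h 3 were called, all lower (all features 3.55%, 0.851% higher and 2.7% lower). At 48 h 2 were called, both lower (all features 1.17%, 0.3% higher and 0.868% lower). At 72 h 6 were called, 2 higher and 4 lower (all features 5.91%, 2.04% higher and 3.87% lower). The members' own shares at these times were 3.53%, 3.53%, 2.35% and 7.06%, near the background.

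At 1, 6 and 16 h limma called 0 of the 85. With an unadjusted p under 0.05 there were 13 at 1 h, 17 at 6 h and 11 at 16 h. Among all features 0% were called and 10.8% had such a p at 1 h, 0% and 18.7% at 6 h, and 0.0667% and 14% at 16 h. The median difference of the receptor genes against sham was -0.02 at 1 h, -0.12 at 3 h, 0.14 at 6 h, 0.10 at 16 h, -0.02 at 24 h, -0.02 at 48 h and 0.12 at 72 h, while the median of all features lay between -0.01 and 0.04.

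**Figure D2:**
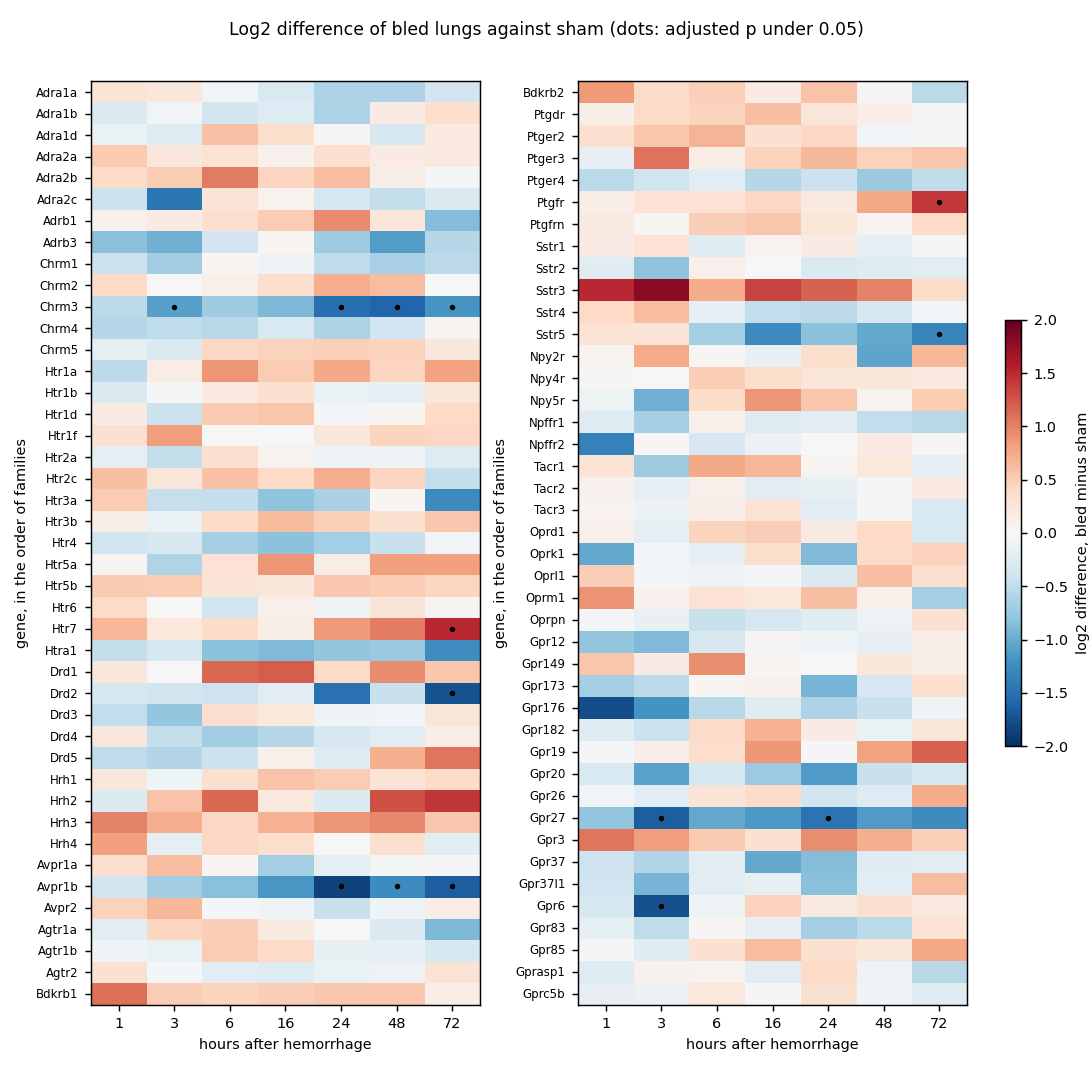
Log2 difference of bled against sham lungs for 85 genes (rows, by family, with the 4 genes that are no receptors beside the family whose symbol they share) at 7 times (columns, hours after hemorrhage). Red is higher and blue lower in bled lungs, and dots mark the 14 calls. The rows of Avpr1b, Chrm3 and Gpr27 are blue at all 7 times.

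Avpr1b encodes the V1b vasopressin receptor, best known from the pituitary, where it drives release of corticotropin. At 24 h it stood at -1.04, -0.85 and -1.99, against 0.35, 0.39, 0.49, 0.62 and 0.99 in the 5 sham lungs. All lungs at 24, 48 and 72 h lay below all sham lungs. The difference at 24 h was -1.86 ± 0.31 (SE; limma, adjusted p = 0.00249), and it passed the test with any 1 array left out.

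At 48 h Avpr1b stood at -0.21, -0.68 and -1.18, with a difference from sham of -1.26 ± 0.31 (limma, adjusted p = 0.0453). This call was lost without any of 7 of the 8 arrays compared and with all 32 arrays (adjusted p = 0.0671). At 72 h the values were -0.63, -1.46 and -1.14, and the difference was -1.65 ± 0.31 (adjusted p = 0.00384), lost without 72 h replicate 2 (adjusted p = 0.0504). Means at the earlier times were 0.20 at 1 h, -0.13 at 3 h, -0.27 at 6 h and -0.60 at 16 h, and no difference passed the test there. With all 32 arrays the difference at 16 h, -1.17, passed (adjusted p = 0.0461).

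Chrm3 (chr17:64696549-65158622), with the highest ratio in unbled lungs, fell at 3, 24, 48 and 72 h. Its values were 0.04, 0.29 and -0.56 at 24 h and 0.00, -0.69 and 0.26 at 48 h, against 0.83, 1.34, 1.57, 1.68 and 1.77 in sham lungs. None of these 6 bled lungs overlapped the sham lungs. The differences were -1.51 ± 0.30 at 24 h (limma, adjusted p = 0.00615) and -1.58 ± 0.30 at 48 h (adjusted p = 0.0186). The call at 24 h was lost without 24 h replicate 3 (adjusted p = 0.0734) and that at 48 h without 48 h replicate 2 (adjusted p = 0.0849).

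At 72 h Chrm3 stood at 0.67, -0.05 and 0.13, all below the lowest sham lung (difference -1.19 ± 0.30, adjusted p = 0.022). At 3 h the values were 0.23, -0.19 and 1.04, and the last of these overlapped the sham lungs (difference -1.08 ± 0.30, adjusted p = 0.049). The call at 72 h was lost without 72 h replicate 2 or 3 (adjusted p up to 0.138), and that at 3 h without any of 6 of the 8 arrays compared (adjusted p up to 0.211). Sham replicate 2, left out for its liver signal, had Chrm3 at 0.53, and with all 32 arrays the 4 calls were lost (adjusted p 0.208 at 3 h, 0.0547 at 24 h, 0.0844 at 48 h and 0.115 at 72 h), with differences of -0.93 to -1.43. The other muscarinic receptor genes, Chrm1, Chrm2, Chrm4 and Chrm5, were called at 0 of the 7 times.

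Gpr27 (chr4:133884894-133886027) encodes an orphan receptor, one without an established ligand. It stood at -1.46, -1.65 and -1.04 at 3 h and at -0.49, -0.89 and -2.26 at 24 h, against 0.04, 0.21, 0.24, 0.36 and 0.46 in sham lungs. Both times lay wholly below sham. The differences were -1.65 ± 0.39 at 3 h (limma, adjusted p = 0.0271) and -1.48 ± 0.39 at 24 h (adjusted p = 0.0366). The call at 24 h was lost without 24 h replicate 3, where the difference was -0.96, and without any of 4 sham arrays. That at 3 h was lost without any of 6 arrays, sham replicates 1, 3, 5 and 6 and 3 h replicates 1 and 2, with differences of -1.82 to -1.51 over all omissions.

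Averaged over the 7 times, 3 of 85 genes were called, all lower than sham (all features 3.42%, 1.4% higher and 2.02% lower). Avpr1b differed by -1.12 ± 0.21, Chrm3 by -1.07 ± 0.20 (limma, adjusted p = 0.00681 for both) and Gpr27 by -1.21 ± 0.27 (adjusted p = 0.0139). All 3 passed with any 1 of 27 arrays left out and with all 32 arrays. Group means of all 7 times lay below the sham mean for each of the 3.

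**Figure D3:**
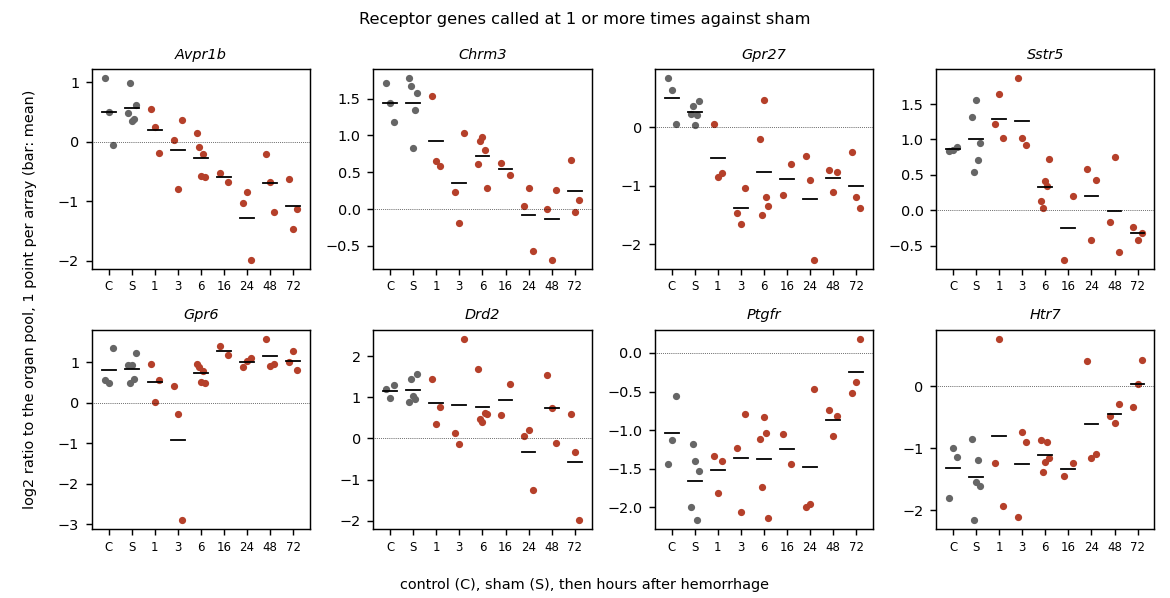
The 8 genes called at 1 or more times against sham. Points are single arrays, bars group means, the vertical axis is the log2 ratio to the organ pool, and the horizontal axis runs from control (C) and sham (S) to hours after hemorrhage. Avpr1b, Chrm3 and Gpr27 lie below sham at 24 h without overlap, and the low mean of Gpr6 at 3 h comes from 1 array at -2.90.

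Against the 3 control lungs the mean of the 7 times differed in 4 of 85 genes, all lower (all features 8.01%, 4.12% higher and 3.89% lower). Gpr27 differed by -1.46 ± 0.33 (limma, adjusted p = 0.0156), Chrm3 by -1.08 ± 0.25 (adjusted p = 0.0176), Avpr1b by -1.05 ± 0.26 (adjusted p = 0.0206) and the orphan receptor gene Gpr37 by -0.96 ± 0.28 (adjusted p = 0.0398). Control arrays stood at 0.84, 0.64 and 0.06 for Gpr27, 1.71, 1.44 and 1.19 for Chrm3, 1.07, 0.50 and -0.05 for Avpr1b and -0.61, -0.38 and -0.84 for Gpr37. All 4 calls were lost without control replicate 1 or without control replicate 2, and that of Gpr37 also without 16 h replicate 1 and with all 32 arrays (adjusted p = 0.127). Paired spots of Gpr37 correlated at 0.463 over the arrays. Sham minus control gave 0 calls by limma and 1 of the 85 genes, Gprasp1, with an unadjusted p under 0.05 (all features 0% and 4.71%). The 3 smallest p belonged to Gprasp1 with a difference of 0.50, Ptgfr with -0.61 and the prostaglandin E2 receptor gene Ptger2 with -0.88 (adjusted p = 0.999 for all 3).

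Promoters of Chrm3, Gpr27 and Sstr5 are shown because these genes were called lower at several times or at 72 h and had an entry in the promoter table used here. They come from RefSeq (GRCr8), run 5′ to 3′ on the strand of the gene from 250 bases before the start that the promoter table uses to 50 after it, and stand in lower case. For Gpr27 and Sstr5 that start is the 5′ end of the gene range given here. For Chrm3 it lies downstream of that end, so its window lies inside the gene range. Capitals mark matches on either strand to 6 motifs: CRE (TGACGTCA), its half-site TGACG, AP-1 (TGANTCA), the E-box CACGTG, the GC box GGGCGG and the TATA box TATAAA. A whole CRE would also hold the half-site.
Chrm3, chr17:64696677-64696976, plus strand: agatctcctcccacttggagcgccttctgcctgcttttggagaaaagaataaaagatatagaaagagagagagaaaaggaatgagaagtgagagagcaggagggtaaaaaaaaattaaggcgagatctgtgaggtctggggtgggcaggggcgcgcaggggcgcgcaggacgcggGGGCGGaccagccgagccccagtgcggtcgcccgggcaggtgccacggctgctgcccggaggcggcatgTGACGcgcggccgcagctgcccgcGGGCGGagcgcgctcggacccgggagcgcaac
Gpr27, chr4:133884644-133884943, plus strand: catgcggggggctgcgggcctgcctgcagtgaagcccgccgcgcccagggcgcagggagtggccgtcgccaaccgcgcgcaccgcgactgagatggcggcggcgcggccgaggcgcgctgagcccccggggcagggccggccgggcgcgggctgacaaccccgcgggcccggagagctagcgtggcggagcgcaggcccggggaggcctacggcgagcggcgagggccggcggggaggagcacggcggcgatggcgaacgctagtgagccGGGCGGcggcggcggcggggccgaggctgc
Sstr5, chr10:15017420-15017719, minus strand: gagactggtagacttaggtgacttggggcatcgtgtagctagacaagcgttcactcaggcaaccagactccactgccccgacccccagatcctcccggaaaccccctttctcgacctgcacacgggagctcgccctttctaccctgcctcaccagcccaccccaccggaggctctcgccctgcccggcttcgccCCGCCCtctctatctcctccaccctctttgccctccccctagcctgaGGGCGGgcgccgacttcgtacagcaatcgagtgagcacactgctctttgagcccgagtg

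All 3 windows held a GC box, Chrm3 and Sstr5 each 2 of them, and the Chrm3 window also a CRE half-site. At the Gpr27 start the letters read atg, as a start codon does, so it may not be where transcription starts. The GC box of Gpr27 lies 20 to 25 bases after that start and may lie in coding sequence. The GC box occurred in 33.1% of 33469 promoters of the table and in 29 of 68 receptor gene promoters found there, and the half-site in 21.2% of all promoters. A match describes these letters only.

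The somatostatin receptor gene Sstr5 (chr10:15010209-15017469), known for its part in inhibiting hormone release from pituitary and pancreatic islets, was called lower at 72 h. At 72 h it stood at -0.23, -0.42 and -0.32, against 0.54, 0.72, 0.95, 1.31 and 1.55 in sham lungs, without overlap. The difference was -1.34 ± 0.31 (limma, adjusted p = 0.0135), and it was lost without 72 h replicate 2 or 3. At 1 h the values were 1.21, 1.64 and 1.02 and at 3 h 1.86, 1.01 and 0.92, within or above the sham range. From 6 h on the mean lay below sham. The differences were -0.68 at 6 h, -1.26 at 16 h, -0.81 at 24 h and -1.02 at 48 h, and none of these was called. The left-out 16 h replicate 3 had Sstr5 at 2.00, above all other arrays, while the 2 arrays used at 16 h stood at -0.70 and 0.20. The other somatostatin receptor genes, Sstr1, Sstr2, Sstr3 and Sstr4, were called at 0 of the 7 times.

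Ptgfr and Htr7 were the 2 receptor genes that rose against sham, both at 72 h. Ptgfr (chr2:243390820-243426647), whose receptor contracts smooth muscle through calcium release, stood at -0.52, -0.38 and 0.18 at 72 h, against -2.17, -1.997, -1.53, -1.40 and -1.18 in sham lungs. The groups did not overlap, and the difference was 1.41 ± 0.35 (limma, adjusted p = 0.0219), lost without 72 h replicate 2 or 3. Among other unbled lungs, the controls had Ptgfr at -1.44, -1.13 and -0.56, the last close to the lowest 72 h lung. The left-out sham replicate 2 had it at -4.04. Htr7 (chr1:243049064-243173636), whose receptor raises cyclic AMP, stood at -0.34, 0.03 and 0.41 at 72 h, against -2.16, -1.61, -1.54, -1.19 and -0.84 in sham lungs. These did not overlap either (difference 1.505 ± 0.44, adjusted p = 0.044). That call was lost without any of 6 arrays, sham replicates 3, 4, 5 and 6 and 72 h replicates 2 and 3, and with all 32 arrays (adjusted p = 0.0737). The paired spots of Htr7 correlated at 0.554 over the arrays.

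Calls on Drd2 and Gpr6 leaned on single arrays. Drd2 (chr8:58605403-58669339) encodes a dopamine receptor that lowers cyclic AMP. It stood at 0.59, -0.33 and -1.99 at 72 h, against 0.88, 0.95, 1.02, 1.45 and 1.56 in sham lungs, and the 3 values spread over more than 2 log2 units. The difference was -1.75 ± 0.53 (limma, adjusted p = 0.0488), but -1.04 without 72 h replicate 3, and the call was lost without any of 7 of the 8 arrays. Gpr6 (chr20:46072480-46075251), which encodes a receptor active without added ligand, stood at 0.42, -0.27 and -2.90 at 3 h, against 0.48, 0.60, 0.93, 0.94 and 1.22 in sham lungs. The difference of -1.75 ± 0.43 (adjusted p = 0.0305) was -0.76 without 3 h replicate 3, where the call was lost. It was lost also without sham replicate 1, 5 or 6 and with all 32 arrays (adjusted p = 0.123).

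Several cell type marker lists stood apart from sham at 72 h, and some did at earlier times. Neutrophil genes did at 1, 3, 6, 24 and 48 h, and mast cell genes at 3, 6, 16, 24 and 48 h. Neuron genes and T and B cell genes did at 16 and 24 h. T and B cell medians were -0.32 to -0.02 at 24 h, against 0.10 to 0.53 in sham lungs. At 72 h the lung epithelium median was 0.90 to 1.27, against 1.72 to 2.82 in sham lungs. The neuron list (5 of 6 genes measured) had medians of -1.14 to -0.68 at 72 h and of -0.98 to -0.66 at 24 h, against -0.55 to -0.20 in sham lungs. Neutrophil genes (4 of 6 measured) had medians of 0.35 to 1.96 at 72 h and of 0.61 to 2.24 at 24 h, against -0.07 to 0.28 in sham lungs. These ranges did not overlap sham. The lung epithelium medians at 3 and 24 h did, and those at 48 h did by little, with the highest at 1.74. At 48 h 0 of the 8 lung epithelium genes lay above sham in group means, with a median difference of -1.04. That median was -0.83 at 72 h.

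Mast cell genes (4 of 5 measured) had medians of 0.43 to 0.54 at 72 h, against -1.23 to -0.18 in sham lungs. Macrophage genes (2 of 5 measured) had 0.01 to 1.04 at 72 h, against 1.33 to 2.20 in sham lungs. Smooth muscle genes (5 of 6 measured) overlapped, with 0.18 to 0.38 at 72 h, against 0.00 to 0.54 in sham lungs. Endothelium genes (2 of 6 measured) and T and B cell genes (4 of 7 measured) overlapped sham at 72 h as well. Erythroid genes (3 of 4 measured) had -0.03 to 0.37 at 72 h, against -1.06 to -0.29 in sham lungs, without overlap. Single erythroid genes went both ways at 72 h, with 1 called higher and 1 lower than sham by limma. The part of any of these cell types in the receptor results was not tested.

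Of the adrenergic receptor genes, 0 of 8 were called at a single time, but 2 were called by the moderated F test. It asks whether any of the 7 times differed from sham, not whether the times differed from each other. That test called 5 of the 85 tested genes (all features 5.69%): Avpr1b (adjusted p = 0.00897), Sstr5 (0.00907), Chrm3 (0.0187), Adra1b (0.0403) and Adrb1 (0.0484). With all 32 arrays Avpr1b kept this call, while Sstr5 (adjusted p = 0.079), Chrm3 (0.0796), Adra1b (0.0622) and Adrb1 (0.0763) lost it. With 1 of 27 arrays left out Adra1b lost it in 13 cases and Adrb1 in 18, and the other 3 in 0. Adrb1 encodes the beta-1 receptor, which raises cyclic AMP and dominates in the heart. It stood at 1.15, 0.74 and 0.95 at 24 h and at -0.28, -1.29 and -1.01 at 72 h, against -0.26, -0.08, 0.05, 0.14 and 0.17 in sham lungs. The 24 h lungs lay above and the 72 h lungs below all sham lungs, the highest 72 h lung by little. Among other unbled lungs, control replicate 3 stood at -0.90 and the left-out sham replicate 2 at -1.065, within the 72 h range. The differences of 0.94 ± 0.31 and -0.86 ± 0.31 did not pass on their own (limma, adjusted p = 0.0839 and 0.0972).

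Adra1b, an alpha-1 receptor gene whose product constricts vessels through calcium release, averaged -0.44 ± 0.23 at 24 h (SD, n = 3) and 0.53 ± 0.26 at 72 h, against 0.20 ± 0.17 in sham lungs (n = 5). The 3 lungs at 24 h lay below all sham lungs, and the difference of -0.63 ± 0.19 did not pass (limma, adjusted p = 0.0552). Adra1a, of the same alpha-1 group, averaged 0.39 at 1 h, 0.34 at 3 h, 0.05 at 6 h, -0.20 at 16 h, -0.51 at 24 h, -0.51 at 48 h and -0.27 at 72 h, with a sham mean of 0.11. Adra1d averaged 1.07 ± 0.39 at 6 h, against 0.49 ± 0.48 in sham lungs (adjusted p = 0.255).

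The alpha-2 receptors lower cyclic AMP and restrain noradrenaline release. Adra2b stood at -0.83, 0.08, -0.57, 0.17 and -0.47 at 6 h, against -2.19, -1.45, -1.25, -0.99 and -0.94 in sham lungs. No array overlapped, and the difference of 1.04 ± 0.28 did not pass (limma, adjusted p = 0.0722). Paired spots of Adra2b correlated at 0.447. Adra2c stood at -1.09, -0.98 and 0.03 at 3 h, against -0.67 in 1 sham lung and 1.01 to 1.30 in the 4 others (difference -1.45 ± 0.43, adjusted p = 0.0619). Adra2a averaged 0.87 ± 0.21 at 1 h, against 0.35 ± 0.41 in sham lungs (adjusted p = 0.464). Adrb3, known from fat tissue, had group means of -2.37 to -1.22 over the bled groups and -1.25 ± 0.33 in sham lungs. Its paired spots correlated at 0.197.

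Of the 3 angiotensin receptor genes 0 were called. Agtr1a and Agtr1b encode the rodent forms of the AT1 receptor, through which angiotensin II constricts vessels, and Agtr2 encodes AT2, which opposes many of its effects. Agtr1a stood at -1.04, -1.39 and -0.13 at 72 h, against -0.51, -0.14, 0.07, 0.21 and 0.60 in sham lungs. The highest 72 h lung overlapped the sham range, and the difference of -0.90 ± 0.32 did not pass (limma, adjusted p = 0.0951). Group means of Agtr1b ran between 0.07 at 72 h and 0.91 at 6 h, with 0.40 ± 0.54 in sham lungs. Those of Agtr2 ran between -0.74 at 16 h and -0.18 at 1 h, with -0.48 ± 0.27 in sham lungs. Agtr2 was spotted under 2 accessions, with mean levels of -0.04 and -0.92. Their paired spots correlated at 0.195 and 0.735. The sources used here do not give probe sequences, so whether spots for Agtr1a and Agtr1b share signal was not tested.

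The other vasopressin receptor genes differed from Avpr1b in their values. Avpr1a, whose V1a receptor constricts vessels, averaged -0.47 ± 0.17 at 1 h and -0.995 ± 0.05 at 24 h, against -0.81 ± 1.06 in sham lungs. The sham lungs spread from -2.28 to 0.12 and overlapped every group. Avpr2, whose V2 receptor retains water in the kidney, stood at 0.86, 1.22 and 0.00 at 3 h, against -0.26, -0.09, -0.07, 0.22 and 0.35 in sham lungs (difference 0.66 ± 0.24; limma, adjusted p = 0.117).

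Bradykinin, a kinin that dilates vessels and makes them leaky, acts on the B1 and B2 receptors. The inducible B1 receptor gene Bdkrb1 stood at 0.22, 1.15 and 0.66 at 1 h, against -0.88, -0.73, -0.50, -0.13 and 0.10 in sham lungs. Bdkrb2 stood at 0.68, 1.59 and 0.84 at 1 h, against 0.12, 0.15, 0.15, 0.22 and 0.29. Both genes lay above all sham lungs at 1 h. Their differences of 1.10 ± 0.34 and 0.85 ± 0.30 did not pass over all features (limma, adjusted p = 0.278 and 0.352). At 72 h Bdkrb2 averaged -0.35 ± 0.14, against 0.19 ± 0.07 in sham lungs. On the 2 left-out arrays Bdkrb1 stood at 1.12 and 2.00 and Bdkrb2 at 0.83 and 1.25.

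Prostanoid receptor genes other than Ptgfr were not called at any time. Ptgdr, whose receptor binds prostaglandin D2, averaged 0.36 ± 0.07 at 3 h, 0.41 ± 0.22 at 6 h and 0.57 at 16 h (2 arrays), against -0.04 ± 0.16 in sham lungs. Each lung at these 3 times lay above the highest sham lung (0.19), and the differences of 0.39, 0.45 and 0.61 did not pass (limma, adjusted p = 0.166, 0.126 and 0.183). Paired spots of Ptgdr correlated at 0.369. The prostaglandin E2 receptor genes were Ptger2, Ptger3 and Ptger4. Ptger4 averaged -0.34 ± 0.14 at 48 h, against 0.40 ± 0.25 in sham lungs (difference -0.74 ± 0.24, adjusted p = 0.122). Ptger3 stood at -0.17, 0.79 and -1.54 at 3 h, against -1.66 to -0.97 in sham lungs (adjusted p = 0.142), and Ptger2 ranged from -1.75 at 48 h to -1.01 at 6 h in group means, with -1.70 ± 0.53 in sham lungs. Paired spots of Ptger2 correlated at 0.339.

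**Figure D4:**
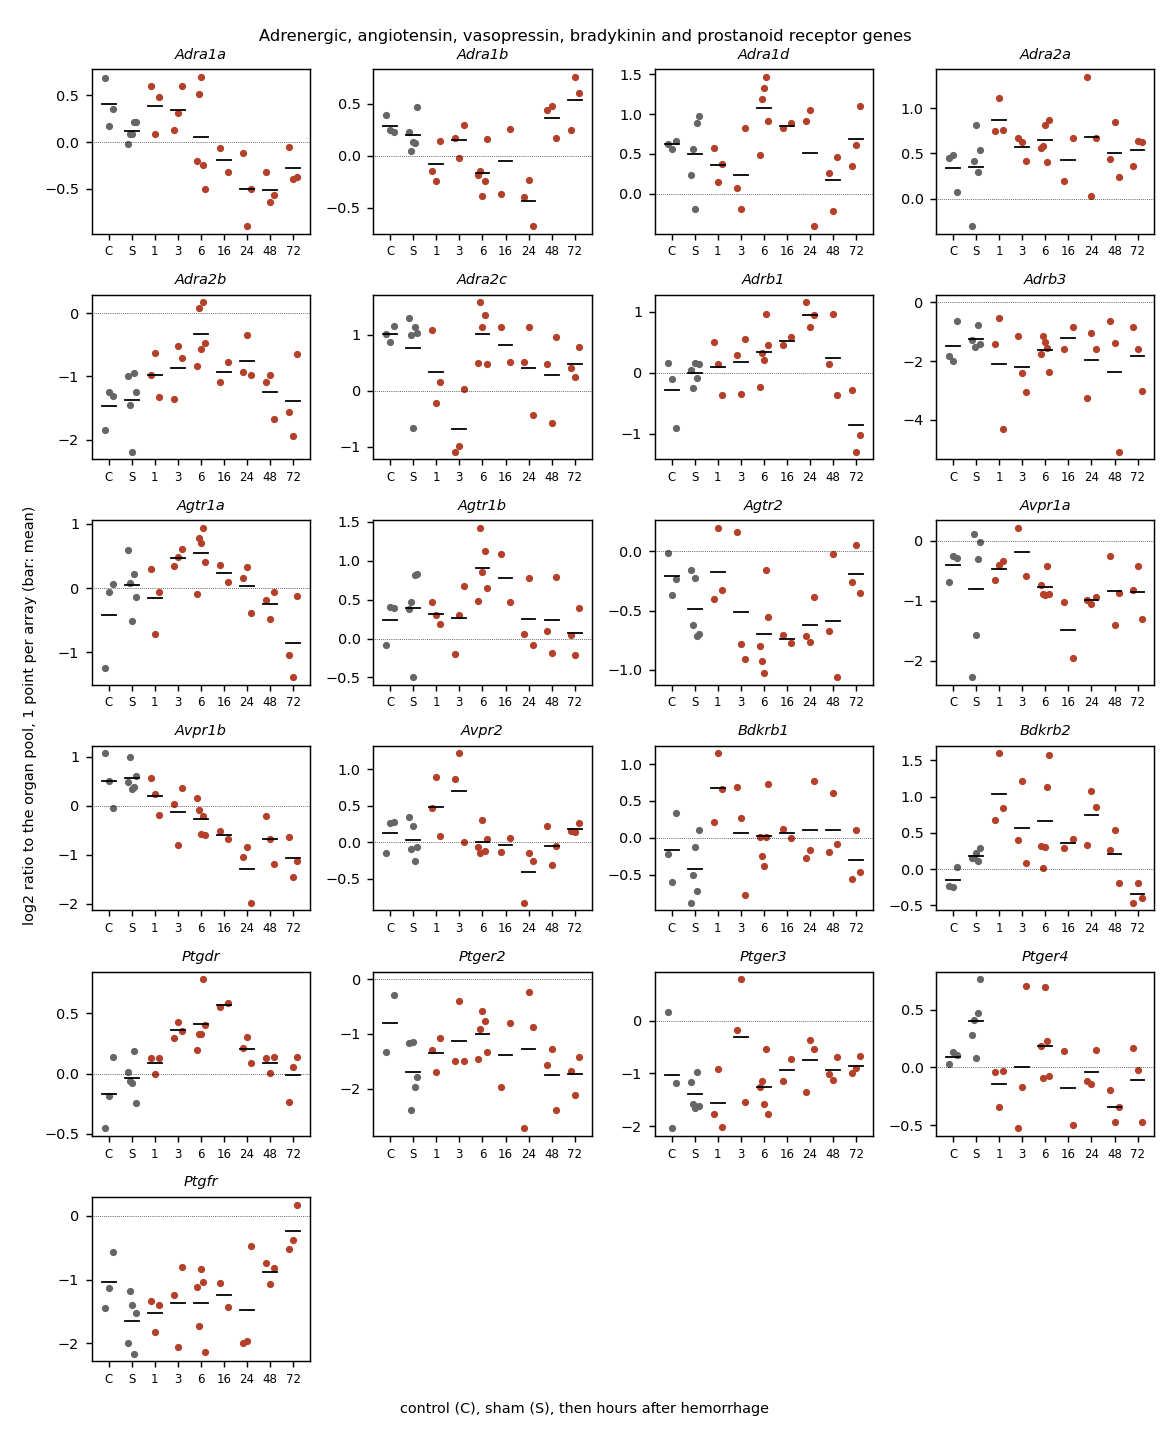
Adrenergic, angiotensin, vasopressin, bradykinin and prostanoid receptor genes, 1 panel each. Points are single arrays, bars group means, the vertical axis is the log2 ratio to the organ pool, and the horizontal axis runs from control (C) and sham (S) to hours after hemorrhage. Adrb1 lies above sham at 24 h and, in 1 lung by little, below it at 72 h, and both bradykinin receptor genes lie above sham at 1 h.

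At the times with 0 calls, the smallest p-values came from several families. At 1 h Npffr2, which encodes a neuropeptide FF receptor, stood at -1.92, -1.56 and -1.47, against -0.93, -0.72, -0.09, 0.03 and 0.25 in sham lungs, without overlap. The difference was -1.36 ± 0.30 (limma, adjusted p = 0.155). Gpr3, whose receptor raises cyclic AMP without added ligand, stood at 0.48, 0.60 and 0.44 at 1 h, against -1.98, -0.69, -0.29, -0.25 and 0.36 in sham lungs (difference 1.08 ± 0.34, adjusted p = 0.278).

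At 6 h Drd1, a dopamine receptor gene whose product raises cyclic AMP, stood at 0.40, 1.35, 0.36, 1.41 and 0.65, against -0.99, -0.83, -0.12, 0.05 and 0.33 in sham lungs. Every lung at 6 h lay above the sham lungs, the lowest by little (difference 1.15 ± 0.28; limma, adjusted p = 0.0624). At 16 h, on 2 arrays, the differences were -1.26 ± 0.35 for Sstr5, 1.21 ± 0.37 for Drd1 and -1.17 ± 0.36 for Avpr1b (adjusted p = 0.137, 0.164 and 0.167). Of the genes that are no receptors, Htra1 had the largest difference at 72 h, -1.24 ± 0.40 (adjusted p = 0.0658).

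Early lungs (mean of 1, 3 and 6 h) were set against late lungs (mean of 24, 48 and 72 h), a comparison that uses no sham array. It called 9 of 85 genes, 5 higher and 4 lower early (all features 7.04%, 4.37% higher and 2.67% lower). The members' share of 10.6% is the highest of the 12 comparisons. Sstr5 had the smallest p, with an early minus late difference of 1.00 ± 0.19 (limma, adjusted p = 0.00346). Its arrays ran from 0.04 to 1.86 early (median 0.92, n = 11) and from -0.60 to 0.75 late (median -0.23, n = 9), so they overlapped. Avpr1b differed by 0.95 ± 0.20 (adjusted p = 0.00637) and Adra1a by 0.69 ± 0.15 (adjusted p = 0.00909). These 3 calls held with any 1 of 20 arrays left out and with all 32 arrays.

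Chrm3 was also higher early, by 0.65 ± 0.19 (limma, adjusted p = 0.0345), and lost its call without any of 8 arrays, the lowest difference being 0.54 without 3 h replicate 3. It was lost also with all 32 arrays (adjusted p = 0.126) and with quantile normalization (0.0549). Avpr2 differed by 0.49 ± 0.15 (adjusted p = 0.0497), lost without any of 17 of 20 arrays and with all 32 arrays (adjusted p = 0.114). Avpr2 was spotted under 2 accessions, which gave 1.09 ± 0.27 and 0.04 ± 0.16 when fitted apart, so they did not measure the same difference. The 4 genes lower early were Drd5 by -1.01 ± 0.27 (adjusted p = 0.0261), Gpr6 by -0.95 ± 0.27 (adjusted p = 0.0319), the serotonin receptor gene Htr5a by -0.68 ± 0.21 (adjusted p = 0.0453) and Npffr2 by -0.62 ± 0.19 (adjusted p = 0.0456). Without 3 h replicate 3 the difference of Gpr6 was -0.62, the smallest over the omissions, and its call held. That call was lost without 1 h replicate 2, 24 h replicate 3, 48 h replicate 1 or 72 h replicate 2. Drd5 lost its call without 24 h replicate 3, 48 h replicate 1 or 72 h replicate 2, and with near-floor spots set to missing (difference -0.76, adjusted p = 0.0647). Paired spots of Drd5 correlated at 0.453. Htr5a lost it without any of 13 and Npffr2 without any of 14 arrays. With all 32 arrays the calls on Gpr6 (adjusted p = 0.0836), Htr5a (0.11) and Npffr2 (0.0602) were lost and that on Drd5 was kept.

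**Figure D5:**
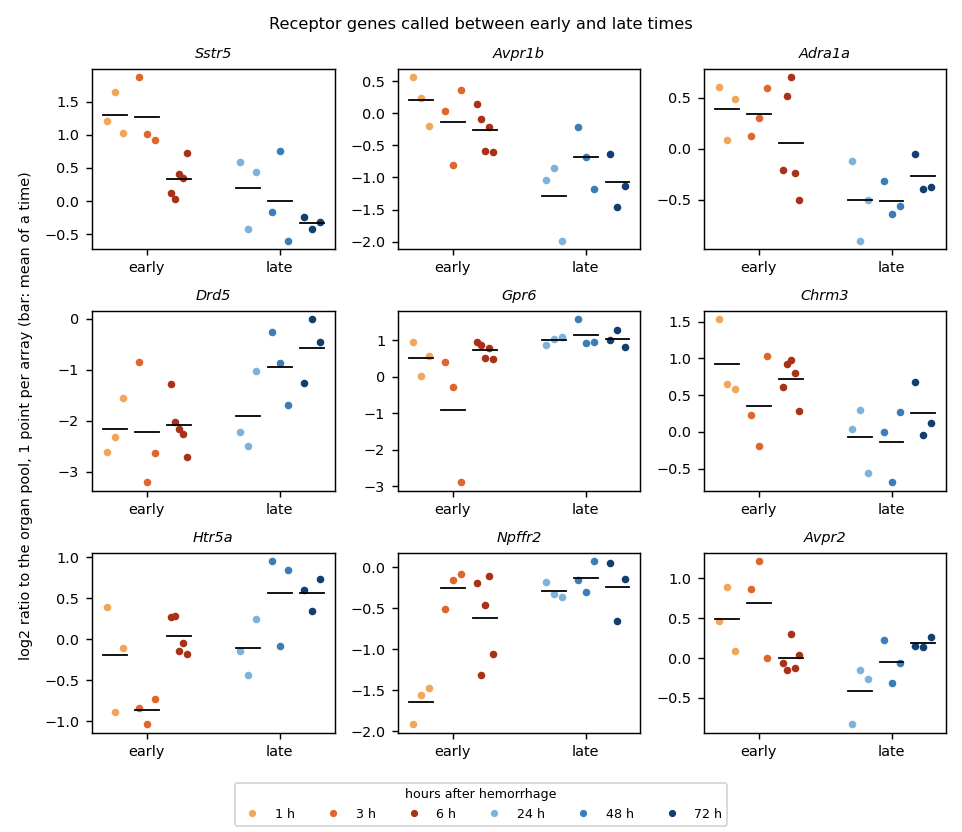
The 9 genes called between early (1, 3 and 6 h) and late (24, 48 and 72 h) lungs. Points are single arrays coloured by hour, bars are means of a time, and the vertical axis is the log2 ratio to the organ pool. Sstr5, Avpr1b and Adra1a lie higher early, by 0.69 to 1.00, and the lowest early point of Gpr6 is 1 array at 3 h, at -2.90.

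Genes that make the ligands of these receptors or carry their signals were followed as 2 lists. Over all comparisons the lists gave 46 calls, of which 17 were kept with all 32 arrays and 11 with any 1 array left out. Of 42 tested ligand and enzyme genes 5 were called at 3 h, 1 higher and 4 lower, with a list median of 0.00 (all features 2.8% called). Bche, a cholinesterase that breaks down choline esters, rose by 1.46. Agt, the angiotensin precursor, fell by 1.14, Pnmt, which makes adrenaline, by 1.46, the prostacyclin synthase gene Ptgis by 0.94 and the inducible cyclooxygenase gene Ptgs2 by 1.09. At 24 h 1 rose and 2 fell, with 3.55% of all features called: Ppy, pancreatic polypeptide, by 0.97, and Pnoc, the nociceptin precursor, and Ptgs2, which fell by 1.05 and 1.22. Ppy also rose at 48 h (1.07) and 72 h (0.91), where 1.17% and 5.91% of all features were called. At 72 h the melatonin pathway enzyme gene Aanat fell by 0.94 and the amine transporter gene Slc18a1 rose by 0.78. Early against late, the endothelin-1 gene Edn1 was higher (0.71), and Agt (-0.68) and Ptgis (-0.45) were lower (all features 7.04%). With all 32 arrays the calls kept among these were Agt and Ptgis at 3 h, Pnoc at 24 h and Agt early against late.

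Of 51 tested G protein signalling genes 3 were called at 3 h, all lower (all features 2.8%). They were the adenylyl cyclase gene Adcy5 (-1.58), the arrestin gene Arrb1 (-1.26), whose product ends receptor signalling, and the calcium release channel gene Itpr2 (-1.37). The phosphodiesterase gene Pde4b, which encodes an enzyme that degrades cyclic AMP, fell by 0.91 at 24 h. The adenylyl cyclase gene Adcy4 fell by 1.18 at 48 h and by 1.21 at 72 h. At 72 h the receptor kinase gene Grk4 rose by 1.15 and the G protein subunit gene Gnb2 fell by 0.61. The call on Adcy4 at 72 h was the 1 of these kept with all 32 arrays.

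Between early and late lungs 6 of the 51 were called, 3 higher and 3 lower early (all features 7.04%). Adcy4 (1.17), Gnb2 (0.52) and Gnao1 (0.49) were higher, and Grk4 (-0.88), Itpr2 (-0.78) and Arrb1 (-0.64) lower. Over the mean of the 7 times against sham, Bche (0.90) and Ppy (0.79) rose and Pnoc (-0.76) and Pde4b (-0.63) fell (all features 3.42%). The early-late calls on Adcy4, Gnb2 and Grk4 and the calls on Pnoc and Pde4b for the mean were kept with all 32 arrays. Against control, 2 ligand and enzyme genes rose and 3 fell, and 2 signalling genes rose and 6 fell (all features 8.01%). Oxt, the oxytocin precursor, and Gnai1 stood highest among them at 1.22 each, and Pde4b lowest at -1.21. At 1, 6 and 16 h 0 genes of either list were called.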

How the data were processed

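Lung RNA was measured on 32 2-colour arrays against a common pool of organ RNA; the labels' protocols speak of 10 organs and name 9. The deposited values are log2 ratios. The sources used here do not give the dyes, the scanner or the authors' normalization, and no intensities were used, so whether a spot stood above background is unknown. Lung was read as the numerator because lung genes stood above the pool. On the linear scale the deposited log2 values are multiples of 0.01, so low ratios are coarse; 12 of 5377 receptor gene spot values (0.223%) were at or below 0.05.

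Each array's median was subtracted, and spots were averaged per gene symbol from the platform annotation (2388 spots had none). 1 limma 3.58.1 fit in R 4.3.3 (lmFit, eBayes, two-sided) over 30 arrays and 9 groups used the 5993 features measured on 2 or more arrays in each group. P-values were Benjamini-Hochberg adjusted over those features within each of 12 comparisons, with a call at an adjusted p under 0.05. Single-gene statements follow a rule that took every adrenergic, angiotensin, vasopressin, bradykinin and prostanoid receptor gene, every called gene, the 3 smallest p-values of a comparison, the 5 highest and 5 lowest ratios, the 4 genes that are no receptors and called genes of the 2 lists. The members and lists were chosen with earlier results of these data known. The fit was tested on simulated data. Alternatives were all 32 arrays, no centring, quantile normalization, no filter, values on every array, near-floor spots missing, 1 feature per accession, array weights, a replicate block and leaving out each array. Positions and promoters come from RefSeq (GRCr8), matched by Entrez identifier.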

Additional observations from a re-analysis of the deposited data

Results flagged for a closer look

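In 8 of 88 sets of sham or 6 h arrays examined, 1 array stood far from the others of its group; chance gives about 1 in 20. Among sham arrays these were Adra2c on replicate 4, at -0.67 against 1.01 to 1.30, Gprasp1 on replicate 1, at 1.09 against 0.20 to 0.36, Htr2a on replicate 4, at 0.43 against 0.97 to 1.05, and Sstr3 on replicate 5, at -4.35 against -1.66 to -1.44. At 6 h they were Drd2 on replicate 1, at 1.69 against 0.40 to 0.62, Htr2a on replicate 1, at 0.71 against 1.33 to 1.41, Gprasp1 on replicate 2, at 0.93 against 0.35 to 0.46, and Oprd1 on replicate 2, at 1.87 against 1.31 to 1.45.

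Early and late times differed by a test of the difference itself in 9 genes (early minus late, log2): Sstr5 1.00, Avpr1b 0.95, Adra1a 0.69, Chrm3 0.65, Avpr2 0.49, Npffr2 -0.62, Htr5a -0.68, Gpr6 -0.95 and Drd5 -1.01. Of the 2 arrays left out of the comparisons, 16 h replicate 3 had Sstr5 at 2.00, above the -0.70 to 1.86 of the 30 arrays used.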

How the results depend on the processing

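Of 108 counts of called receptor genes over 9 alternatives and 12 comparisons, 84 were within 1.5 times the reported count. Of 385 single-gene results under these alternatives 335 kept their direction and side of the threshold, 41 lost the call, 9 gained one and 0 reversed; over 576 results with 1 array left out these numbers were 456, 118, 2 and 0. With all 32 arrays the calls were 1 at 3 h, 1 at 16 h, 0 at 48 h, 4 between early and late times and 1 by the F test. Array weights gave 1 call at 1 h, 5 at 3 h, 6 at 6 h, 3 at 16 h, 14 at 48 h, 13 at 72 h, 11 for the mean of the 7 times against sham, 19 against control and 33 by the F test. Without centring there were 7 calls at 24 h and 8 by the F test. The F test gave 9 with quantile normalization, 9 with values on every array and 8 with near-floor spots missing. The cause of these moves was not tested. Replicate numbers did not pair the samples (median correlation -0.0049 for arrays of the same number in different groups, against 0.012 for different numbers), and a fit with the replicate number as a block gave 0 calls at 3 h, 0 at 48 h, 3 at 72 h, 4 between early and late times and 2 by the F test (Avpr1b and Sstr5). With 1 array left out the calls ran from 0 to 0 at 1 h, 0 to 13 at 3 h, 0 to 2 at 6 h, 0 to 0 at 16 h, 1 to 4 at 24 h, 0 to 2 at 48 h, 0 to 10 at 72 h, 3 to 4 for the mean of the times against sham, 3 to 10 between early and late times, 0 to 5 against control, 0 to 0 for sham against control and 3 to 10 by the F test. At 3 h 13 genes were called when 3 h replicate 3 was left out, 7 without sham replicate 4, 1 without sham replicate 3 or 3 h replicate 2, and 0 without sham replicate 1, 5 or 6. At 48 h it was 0 without 48 h replicate 2 and 1 without 48 h replicate 1 or 3 or sham replicate 1, 3, 5 or 6. It was 2 at 6 h without 6 h replicate 1, 1 at 24 h without 24 h replicate 3, and at 72 h 10, 0 and 1 without 72 h replicate 1, 2 and 3. Between early and late times it was 5 without 6 h replicate 3, 3 without 24 h replicate 3 or 48 h replicate 1, and 4 without 72 h replicate 2. Against control it was 0 without control replicate 1 or 2.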
